A study of Mus musculus with 31 samples.

Results

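Poly I:C was compared with its vehicle in mouse breast tumours titled 4T1, using 8 of the 31 tumour RNA libraries of the study, chosen by their titles. The 4 poly I:C libraries came from tumours tagged Poly I:C+PBS and the 4 control libraries from tumours tagged Saline+PBS, so PBS was common to both arms. All were wild type by genotype, and the tumours grew in the mammary site of syngeneic immunocompetent mice. The remaining 4T1 arms, phenformin (3 libraries) and the combination (4 libraries), entered the fit but not the contrast. They helped to estimate the spread, to decide which genes were tested and to scale the libraries. For a test of the difference between models, 4 poly I:C and 4 control libraries of the second model, titled MT, were contrasted. The MT phenformin and combination libraries entered that joint fit in the same way. The strain and cell line tags contradict the titles: libraries titled 4T1 carry the tags FVB and MT4788, whereas those titled MT carry BALBc and 4T1-537. Groups follow the titles here. Which label is right was not tested. Dose, schedule, age and sex were not used here, and the labels do not say whether replicates are separate mice, so p-values measure the spread between these libraries, which may be partly technical.

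Poly I:C mimics the double-stranded RNA that viruses make. It is sensed by Toll-like receptor 3 in endosomes and by MDA5 (encoded by Ifih1) in the cytosol, and both routes turn on NF-kB, which drives cytokines and chemokines, and interferon regulatory factors, which drive type I interferon and the many interferon-stimulated genes. In tumours the cells that respond include macrophages, which carry MHC class II and complement C1q, and neutrophils, which are drawn in by CXCR2 ligands and are produced under the control of G-CSF. In bulk RNA, fewer cells of a type and less RNA per cell cannot be told apart, and this holds for every level given here.

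Total counts were 15410527 to 17243288 in the poly I:C libraries and 16546393 to 19177122 in the control libraries. In the plot of the first components of the 15 4T1 libraries, poly I:C replicates 1, 2 and 3 lay at one end of the second component and poly I:C replicate 4 lay near the controls. Poly I:C replicate 1 also stood apart on the first component together with control replicate 4 and a phenformin library. Igkc, an antibody light chain, measured 657, 0.945, 3.31 and 0.621 CPM (counts scaled to a common library size) in poly I:C replicates 1 to 4, against 53.9, 2.72, 8.79 and 108 CPM in control replicates 1 to 4. Acta1, the actin of skeletal muscle, measured 3.65, 33.6, 18.1 and 1.49 CPM with poly I:C, against 0.465 to 0.748 CPM in controls. Summed over 16 muscle genes, levels were 41.3 to 301 CPM with poly I:C and 29.9 to 34.9 CPM in controls. Myh4, a myosin of fast muscle fibres, had 21, 1595, 578 and 42 reads with poly I:C and 0, 1, 1 and 0 reads in controls, a change too dependent on the control counts to be given as a fold. The part of muscle and of antibody-producing cells in the results below was not tested beyond the fits without those libraries.

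**Figure D1:**
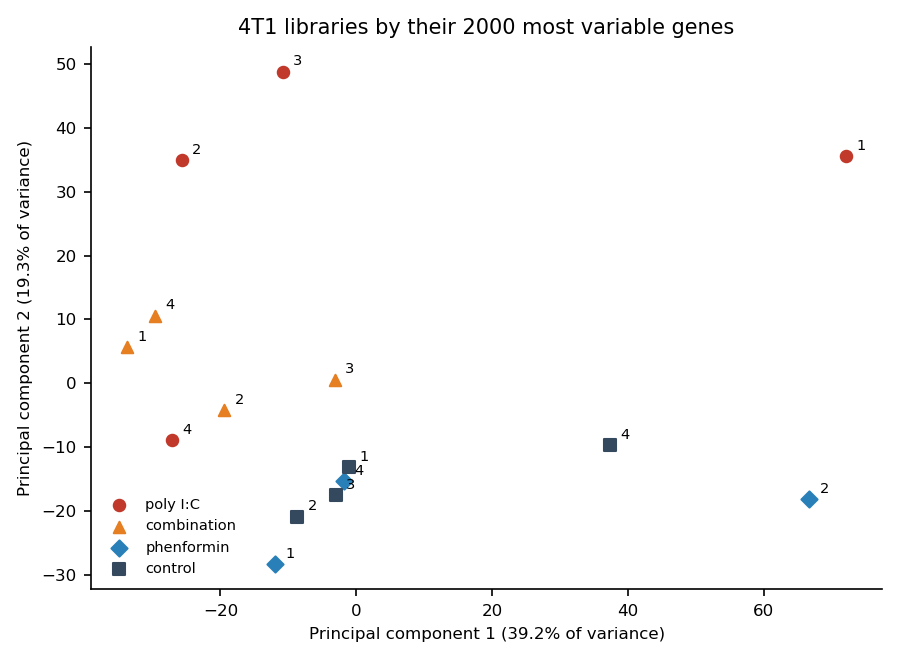
Each point is a 4T1 library placed by the first (39.2% of variance) and second (19.3%) principal components of log2 CPM over the 2000 most variable genes, with its replicate number. Poly I:C replicates 1, 2 and 3 lie highest on the second component, while poly I:C replicate 4 (-8.89) lies next to the controls (-20.9 to -9.70) on it.

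Of 17445 genes tested, 1102 (6.32%) were called at an adjusted p under 0.05, 568 higher (3.26%) and 534 lower (3.06%) with poly I:C. At least a 2-fold change was reached by 259 of the higher and 132 of the lower genes. In 414 of the higher and 484 of the lower genes the 4 poly I:C libraries lay wholly on one side of the 4 controls, against 964 (5.53%) and 1175 (6.74%) of all genes tested that did so. Poly I:C replicate 4 moved least: over the 568 higher genes its median difference from the control mean was 0.45 on the log2 scale, against 0.73, 0.84 and 1.0 for replicates 1, 2 and 3. Over the 534 lower genes it was -0.39, against -0.71, -0.62 and -0.62. These genes were chosen by the same comparison, so those medians are a description.

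How many genes passed depended on the libraries kept. Leaving out poly I:C replicate 4 gave 1986 calls (11.4% of genes, 5.58% higher and 5.81% lower). The fit that dropped poly I:C replicate 2 gave 289 (1.66%, 0.921% higher and 0.743% lower), and those that dropped poly I:C replicates 1 or 3 gave 746 (4.33%, 2.64% higher and 1.68% lower) and 764 (4.41%, 2.05% higher and 2.37% lower). Of the controls, dropping replicate 1 gave 919 (5.29%, 2.76% higher and 2.53% lower), replicate 2 gave 455 (2.62%, 1.27% higher and 1.35% lower), replicate 3 gave 320 (1.84%, 0.962% higher and 0.881% lower) and replicate 4 gave 447 (2.58%, 1.14% higher and 1.44% lower). With both poly I:C replicates 2 and 3 left out, which are the poly I:C libraries with Acta1 above 10 CPM, 1 gene was called, Pi15, which was higher (0.00565% of genes, and 0.0% lower). All 1099 measured genes of the 1102 then had the same sign as before, with a median size of 0.64 on the log2 scale, against 0.76 in the full comparison. They were chosen by a comparison that holds these same libraries, so the kept signs are no independent check. No member of any gene list below was called in that fit, which has 2 poly I:C libraries. The fit without poly I:C replicates 1 and 4 also has 2 and gave 1440 calls of 17670 genes. Its median size over the 1102 genes was 0.84. Why these fits differ was not tested. In the 8 fits that each left out 1 library, 244 genes were called every time, 126 higher and 118 lower. The fit of only the 8 libraries compared, without the other 4T1 arms, gave 401 calls of 16568 genes. Higher members then numbered 0 for neutrophil chemokines, 1 for interferon-stimulated effectors, 3 for hypoxia, 2 for glycolysis, 5 for collagens and 6 for fibroblasts. In the full comparison these were 4, 6, 11, 9, 11 and 11. Lower members were 8 for macrophages and 7 for MHC class II, against 9 and 8. Muscle genes gave more, 6 of 12 tested against 1 of 16.

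**Figure D2:**
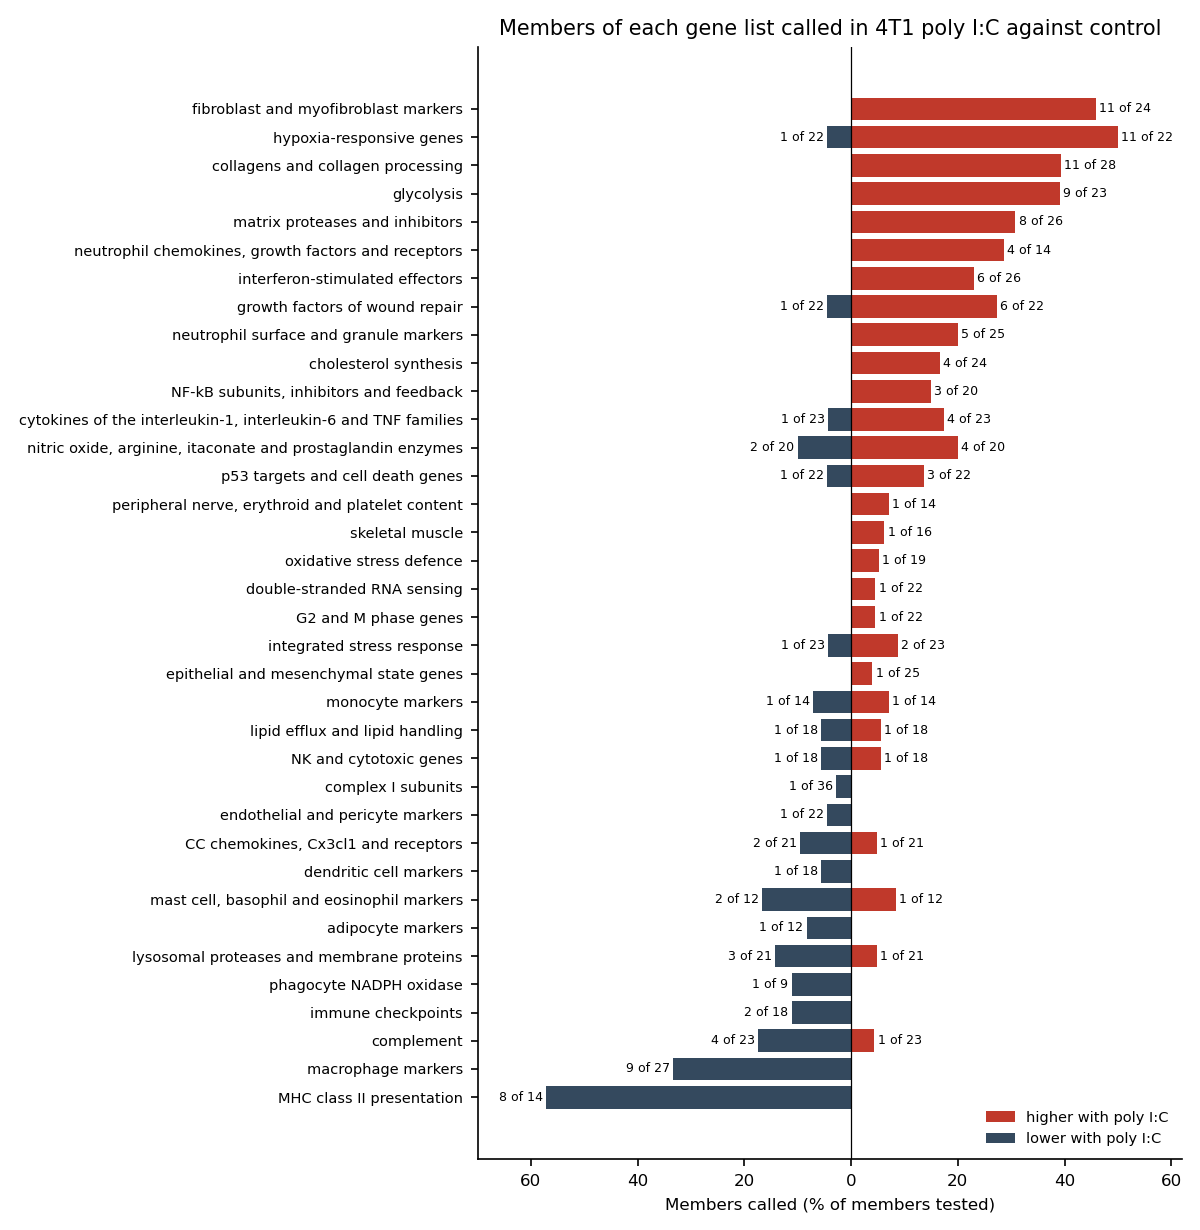
For each gene list with at least 1 called member, bars give the percentage of tested members called higher (right) and lower (left) in 4T1 poly I:C against control tumours, with counts beside them. Fibroblast, hypoxia and collagen lists have the most higher members (11 each), and macrophage and MHC class II lists have 9 and 8 lower members.

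Among the inflammatory mediators, the enzymes Nos2 and Ptgs2 and the cytokines Il6 and Il11 rose. Nos2, which makes nitric oxide from arginine (ENSMUSG00000020826, GRCm38 chromosome 11, 78920787 to 78960254), measured 288, 168, 205 and 38.9 CPM in poly I:C replicates 1 to 4, against 35.0, 17.2, 17.3 and 16.1 CPM in controls. All poly I:C values were above all control values, but replicate 4 was only just above the highest control. The log2 fold change was 3.03 ± 0.58 (SE, adjusted p = 0.012). Ptgs2, the inducible cyclooxygenase of prostaglandin synthesis (ENSMUSG00000032487, chromosome 1, 150100031 to 150108227), measured 290, 228, 394 and 102 CPM with poly I:C and 71.9, 79.9, 47.4 and 43.7 CPM in controls (2.06 ± 0.38, adjusted p = 0.0112), again without overlap. Its constitutive relative Ptgs1 fell, with 36.0, 39.4, 27.5 and 56.1 CPM with poly I:C against 61.6 to 81.9 CPM in controls (-0.85 ± 0.19, adjusted p = 0.0243). The rest of the list of 20 nitric oxide, arginine, itaconate and prostaglandin enzymes gave 2 more higher members, Ass1, which rebuilds arginine from citrulline (0.64 ± 0.16), and Acod1, which makes itaconate (2.28 ± 0.61), and 1 more lower member, Asl (-0.31 ± 0.08). Arg1, the arginase that competes for the same substrate, was 242, 352, 645 and 238 CPM with poly I:C and 199 to 425 CPM in controls and was not called (0.15 ± 0.34, adjusted p = 0.833). The calls of Nos2 and Ptgs2 held in each of the 8 fits that left out 1 library, and Acod1 was called in 1 of them. Higher members of the list numbered 6 without poly I:C replicate 4 and 2 or 3 in the other fits. Lower members, Ptgs1 included, numbered 0 without control replicate 2 or poly I:C replicates 1 or 2, and 0 with only the 8 libraries compared.

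Il6, the main interleukin of the acute-phase response (ENSMUSG00000025746, chromosome 5, 30013114 to 30019981), measured 10.3, 7.56, 11.3 and 1.37 CPM with poly I:C and 0.933, 1.44, 1.76 and 0.767 CPM in controls. Poly I:C replicate 4 lay within the control range, and the other poly I:C libraries were several-fold above it. The log2 fold change was 2.63 ± 0.51 (adjusted p = 0.0128). Il11, of the same receptor family, had the same layout, with 14.2, 10.3, 11 and 1.49 CPM with poly I:C and 0.827 to 2.3 CPM in controls (2.48 ± 0.51, adjusted p = 0.0153). In the list of 23 tested cytokines and receptors of the interleukin-1, interleukin-6 and TNF families, Il1a (2.15 ± 0.58) and the decoy receptor Il1r2 (1.56 ± 0.37) also rose, and Tnfrsf1b, a receptor for TNF, fell. Tnfrsf1b measured 84.4, 88.9, 85.7 and 97.0 CPM with poly I:C and 116, 130, 134 and 122 CPM in controls (-0.50 ± 0.09, adjusted p = 0.0101). It moved alike in all 4 poly I:C libraries, and its call held in all 8 fits that left out 1 library. Tnf itself, at 0.807 to 3.37 CPM with poly I:C and 0.985 to 1.71 CPM in controls, and Il1b, at 25.8 to 236 against 56.4 to 82.4 CPM, were not called. The list had 8 higher members without poly I:C replicate 4, 1 without control replicate 3 and 2 or 3 in the other fits without 1 library.

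The promoter of Il6 is shown because its binding sites for NF-kB are the textbook case of this pathway. The sequence is RefSeq's for GRCm38.p6, chr5:30012864-30013163 on the plus strand, from 250 bases before to 50 bases after the start site. Capitals mark an inverted Y box (bases -106 to -99) and a match to the kB consensus (bases -44 to -35).
Il6: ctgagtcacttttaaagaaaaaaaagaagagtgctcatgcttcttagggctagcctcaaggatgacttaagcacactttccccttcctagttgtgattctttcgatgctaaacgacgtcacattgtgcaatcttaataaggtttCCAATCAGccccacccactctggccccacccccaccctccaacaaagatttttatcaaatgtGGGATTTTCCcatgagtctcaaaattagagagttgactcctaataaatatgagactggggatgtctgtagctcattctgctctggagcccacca
A kB consensus match on either strand was found in 8.46% of 32817 RefSeq mouse promoters of this length. Among the tested genes with a promoter it was found in 9.68% of 403 called higher, 11% of 401 called lower and 10.3% of all 11499, so its share among called genes was close to the background. A match of letters is not a measured binding site.

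NF-kB subunits, inhibitors and feedback genes rose for 3 of 20 members, Tnfaip3, Nfkbiz and Zc3h12a, and none fell. Tnfaip3, also called A20, is a ubiquitin-editing enzyme that shuts NF-kB signalling off. It measured 179, 160, 161 and 90.7 CPM with poly I:C and 83.7, 61.8, 59.9 and 74.7 CPM in controls, without overlap (1.08 ± 0.21, adjusted p = 0.0125), and its call held in all 8 fits that left out 1 library. Nfkbiz, a co-activator of secondary inflammatory genes, was at 85.2, 42.4, 74.2 and 14.8 CPM against 15 to 24.1 CPM in controls (1.53 ± 0.41, adjusted p = 0.0424). Zc3h12a, a nuclease that degrades cytokine messengers, was at 40.4, 18.4, 23 and 9.81 CPM against 9.31 to 10.5 CPM (1.21 ± 0.31, adjusted p = 0.038). Poly I:C replicate 4 lay within or next to the control range for both of these genes. Among the fits without 1 library, Nfkbiz and Zc3h12a were called only without poly I:C replicate 4, where 6 members of the list rose.

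Chemokines and growth factors for neutrophils rose for 4 of 14 tested members, with a median log2 fold change of 1.56 over the list against 0.01 over all genes. Cxcl2, a CXCR2 ligand, measured 125, 19.0, 69.5 and 1.06 CPM with poly I:C and 2.64, 4.17, 1.29 and 1.65 CPM in controls (4.46 ± 1.02, adjusted p = 0.0234). Its relative Cxcl3 had 43.5, 13.6, 33.3 and 1.93 CPM against 0.590 to 2.78 CPM (3.72 ± 0.88, adjusted p = 0.0262). For both, 3 poly I:C libraries were above every control and replicate 4 was not. Csf3, which encodes G-CSF, measured 105, 56.4, 45 and 10.3 CPM with poly I:C and 13.1, 17.4, 8.74 and 17.5 CPM in controls (1.93 ± 0.53, adjusted p = 0.046). Ppbp, a platelet chemokine, had 27, 49, 51 and 11 reads with poly I:C and 11, 9, 9 and 3 reads in controls (2.27 ± 0.45, adjusted p = 0.0141). Cxcl1 (1.98 ± 0.68, adjusted p = 0.0955) and Cxcl5 (2.13 ± 0.68, adjusted p = 0.0748) had similar sizes and were not called. With poly I:C replicate 4 left out, 8 members were called, with poly I:C replicate 2 left out 2, and with control replicates 2, 3 or 4 left out 1. In the fit of only the 8 libraries compared 0 were called.

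Neutrophil surface and granule markers rose for 5 of 25 tested members, with a median log2 fold change of 1.66. Slfn4, a Schlafen family gene of myeloid cells (ENSMUSG00000000204, chromosome 11, 83175186 to 83190216), measured 199, 111, 322 and 11 CPM with poly I:C, against 11.3, 19.9, 11.5 and 12.6 CPM in controls (3.54 ± 0.69, adjusted p = 0.0133). Mmp8, the neutrophil collagenase, measured 32.3, 18.2, 40.8 and 4.91 CPM against 2.54 to 4.86 CPM (2.68 ± 0.54, adjusted p = 0.0143). Replicate 4 was below every control for Slfn4 and at their upper edge for Mmp8. Hdc, which makes histamine (2.09 ± 0.56), and the C-type lectin receptors Clec4d (1.85 ± 0.52) and Clec4e (1.73 ± 0.49) also rose, each called in 1 of the 8 fits without 1 library. The alarmins S100a8, with 149, 73.6, 250 and 8.32 CPM against 15 to 39.9 CPM (2.25 ± 0.69, adjusted p = 0.0659), and S100a9, with 393, 143, 453 and 17.8 CPM against 28.9 to 70.5 CPM (2.48 ± 0.71, adjusted p = 0.0514), missed the threshold. So did the chemokine receptor Cxcr2 (1.66 ± 0.57, adjusted p = 0.0943), and the G-CSF receptor Csf3r was at 29.6, 22.5, 39.6 and 6.71 CPM against 14.7 to 26.0 CPM (0.33 ± 0.40, adjusted p = 0.654). Summed over 28 markers, levels were 2369, 1775, 2232 and 680 CPM in poly I:C replicates 1 to 4, against 692 to 1003 CPM in controls. Neutrophil markers, cytokines and chemokines were thus high in the same 3 libraries, and whether the mediators came from more neutrophils was not tested. The fit that dropped poly I:C replicate 4 called 13 members, and the others called 1 or 2.

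**Figure D3:**
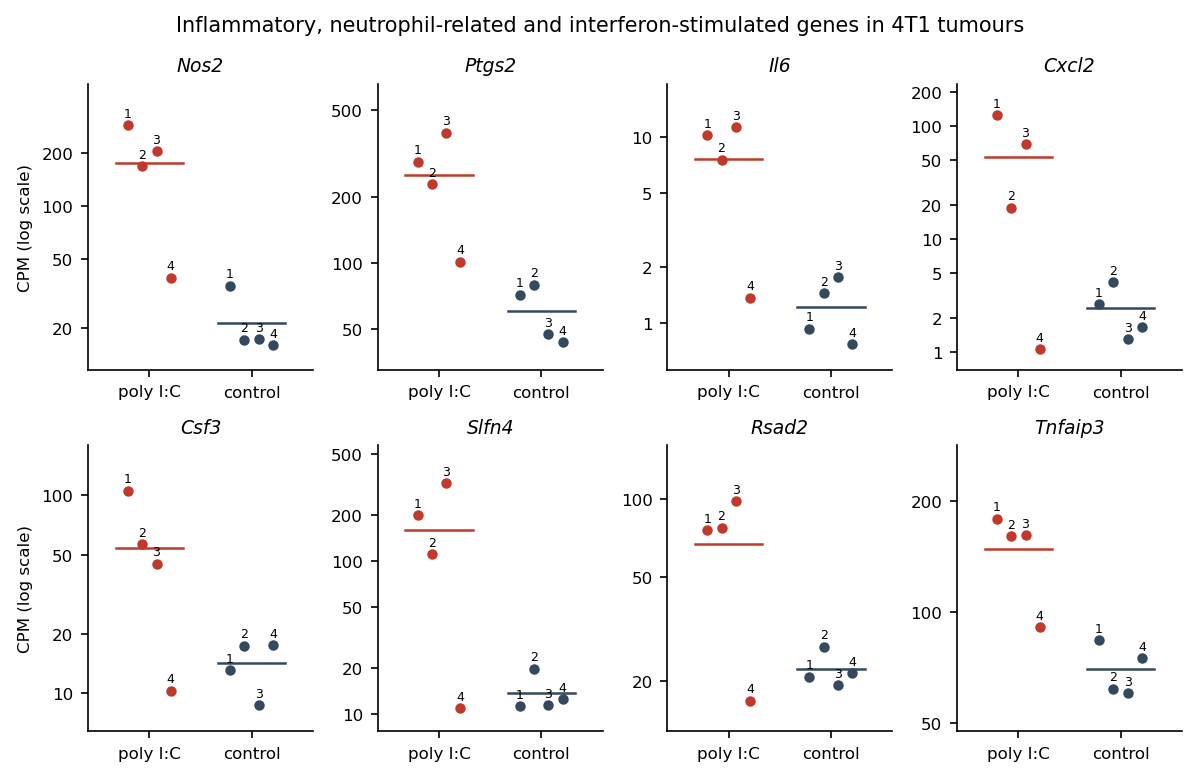
CPM of 8 called genes (log axis) in the 4 poly I:C libraries (left, red) and 4 controls (right, dark blue) of the 4T1 model, with replicate numbers and a bar at each group mean. Poly I:C replicates 1, 2 and 3 lie above every control in all 8 panels, and replicate 4 lies among or near the controls.

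Interferon-stimulated effectors rose for 6 of 26 members and fell for none, with a median log2 fold change of 0.66. Samd9l, an antiviral factor that stalls translation (ENSMUSG00000047735, chromosome 6, 3372257 to 3399572), measured 224, 179, 198 and 121 CPM with poly I:C and 85.0, 108, 109 and 76.2 CPM in controls (0.93 ± 0.20, adjusted p = 0.0165). Isg20, an exonuclease for single-stranded RNA, was at 60.0, 40.7, 62.9 and 30.7 CPM against 26.1 to 27.2 CPM (0.86 ± 0.18, adjusted p = 0.0165). Neither gene overlapped between groups, replicate 4 being the lowest poly I:C library each time. Rsad2 (viperin) was at 75.7, 77.6, 98.1 and 16.8 CPM against 19.3 to 27.1 CPM (1.59 ± 0.43, adjusted p = 0.0415), with replicate 4 below every control. Herc6 (0.58 ± 0.15), Ddx60 (0.76 ± 0.21) and Trim30a (0.67 ± 0.19) were the other called members. Textbook members such as Isg15, with 71.1, 84.4, 89.3 and 26.0 CPM against 35.6 to 49.3 CPM (0.61 ± 0.33, adjusted p = 0.276), and Mx1 (1.01 ± 0.43, adjusted p = 0.171) were not called. Dropping poly I:C replicate 4 raised the count to 20 of 26, and dropping any other library left 1 or 2. No member was called in all 8 of these fits.

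The sensors of double-stranded RNA and the interferon system itself gave few calls, where 3.26% of all genes were called higher and 3.06% lower. Of 22 sensing genes, Eif2ak2 rose, which encodes the kinase PKR that double-stranded RNA activates. It measured 151, 167, 146 and 140 CPM with poly I:C and 125, 116, 123 and 109 CPM in controls, without overlap (0.35 ± 0.09, adjusted p = 0.0419). Tlr3 was at 75.5, 103, 81.3 and 80.7 CPM against 78.0 to 87.1 CPM (0.08 ± 0.16, adjusted p = 0.803), and Ifih1 at 60.0 to 99.5 against 60.4 to 79.0 CPM (0.29 ± 0.17, adjusted p = 0.316). Ifnb1, the gene of interferon beta, had 0, 1, 1 and 1 reads with poly I:C and 0, 1, 0 and 1 reads in controls, which is too few to compare. None of 16 interferon ligands, receptors and signalling genes passed, and none of 18 interferon-gamma-induced GTPases and CXCR3 ligands. Cxcl10 measured 70.1, 83.2, 99.5 and 23 CPM with poly I:C and 31.4 to 42.5 CPM in controls (0.87 ± 0.41, adjusted p = 0.207), and Ifng 0.855 to 1.91 against 1.42 to 2.38 CPM (-0.48 ± 0.37, adjusted p = 0.456). The Eif2ak2 call held in 1 of the 8 fits that left out 1 library, and no sensing gene was called in 7 of them. In the fit that dropped poly I:C replicate 4, the remaining one, 8 sensing genes were called higher and 1 lower, 3 genes of the interferon list were higher, and 1 of the interferon-gamma list.

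The classical sequence of interferon-stimulated promoters, the core of the interferon-stimulated response element (GAAA, any 2 bases, GAAA), was searched on both strands. It was present in 3.43% of the 32817 promoters, in 5.96% of the 403 genes called higher, in 2.24% of the 401 called lower and in 3.24% of all 11499 tested genes with a promoter. In the list of interferon-stimulated effectors it was present in 10 of 20. Samd9l had no match in its 300 bases.

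Macrophage markers fell for 9 of 27 members and rose for none, with a median log2 fold change of -0.93. C1qa, a chain of complement C1q made mostly by macrophages (ENSMUSG00000036887, chromosome 4, 136895917 to 136898803), measured 144, 178, 204 and 235 CPM in poly I:C replicates 1 to 4 and 327, 461, 470 and 389 CPM in controls (-1.11 ± 0.17, adjusted p = 0.00686). Apoe, the lipid carrier that tumour macrophages express strongly, measured 681, 767, 893 and 881 CPM against 1410, 2179, 2431 and 1758 CPM (-1.27 ± 0.19, adjusted p = 0.00538). Here all 4 poly I:C libraries, replicate 4 included, lay below every control. Mgl2, the lectin CD301b of alternatively activated macrophages and some dendritic cells, had 1.37, 1.59, 1.53 and 7.82 CPM with poly I:C against 27.3, 26.9, 32.2 and 13.4 CPM (-3.02 ± 0.51, adjusted p = 0.00951). Csf1r, the receptor macrophages need to survive, was at 109, 123, 123 and 193 CPM against 217 to 308 CPM (-0.94 ± 0.20, adjusted p = 0.0178). C1qb (-1.21 ± 0.21), C1qc (-1.14 ± 0.21), Cd300ld3 (-1.65 ± 0.34) and Cbr2 (-1.21 ± 0.30) fell as well. The F4/80 gene Adgre1, at 12.5, 35.1, 45.7 and 44.3 CPM against 47.2 to 83.5 CPM (-0.93 ± 0.31, adjusted p = 0.0853), and the mannose receptor Mrc1 (-1.02 ± 0.37, adjusted p = 0.11) were not called. Summed over 27 markers, levels were 1864 to 2838 CPM with poly I:C and 3844 to 5541 CPM in controls. Between 5 and 10 members were lower in the fits without 1 library, with the fewest without control replicate 3.

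MHC class II genes fell for 8 of 14 members. Cd74, the invariant chain that guides class II through the cell, measured 974, 630, 557 and 924 CPM with poly I:C and 1541, 1966, 2374 and 2177 CPM in controls (-1.39 ± 0.22, adjusted p = 0.00694). H2-Ab1 measured 282, 189, 170 and 230 CPM against 416, 552, 752 and 654 CPM (-1.44 ± 0.26, adjusted p = 0.0101). H2-Aa (ENSMUSG00000036594, chromosome 17, 34282744 to 34287823) measured 513, 303, 264 and 425 CPM against 715, 899, 1208 and 1052 CPM (-1.36 ± 0.26, adjusted p = 0.0123). These and H2-Eb1, at 222 to 358 against 554 to 929 CPM (-1.36 ± 0.27, adjusted p = 0.0141), did not overlap between groups, and replicates 2 and 3 were the lowest poly I:C libraries for each. H2-Ea-ps, named as a pseudogene in the reference annotation, was at 218 to 366 CPM with poly I:C and 492 to 895 CPM in controls (-1.34 ± 0.27, adjusted p = 0.0142). Whether it is a pseudogene in these mice was not tested. Closely related class II genes can share reads, so differences between these members are uncertain. Dropping poly I:C replicate 2 left 3 members called, and without control replicates 2 or 3 there were 5 and 4. None of 19 MHC class I genes passed the test.

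The promoters of H2-Aa and H2-Eb1 are given because class II genes share a conserved promoter module, which ends in the Y box, bound by NF-Y, and is switched on through CIITA. Capitals mark the Y box CTGATTGG in both (bases -51 to -44 in H2-Aa and -62 to -55 in H2-Eb1) and overlapping matches to the kB consensus in H2-Aa (bases -131 to -121). The sequences are RefSeq's for GRCm38.p6, chr17:34287774-34288073 on the minus strand for H2-Aa and chr17:34305617-34305916 on the plus strand for H2-Eb1.
H2-Aa: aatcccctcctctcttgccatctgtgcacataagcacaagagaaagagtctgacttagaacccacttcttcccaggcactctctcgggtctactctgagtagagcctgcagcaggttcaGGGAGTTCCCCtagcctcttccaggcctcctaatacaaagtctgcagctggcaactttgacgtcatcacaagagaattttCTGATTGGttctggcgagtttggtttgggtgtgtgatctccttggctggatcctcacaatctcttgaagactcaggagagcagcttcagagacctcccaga
H2-Eb1: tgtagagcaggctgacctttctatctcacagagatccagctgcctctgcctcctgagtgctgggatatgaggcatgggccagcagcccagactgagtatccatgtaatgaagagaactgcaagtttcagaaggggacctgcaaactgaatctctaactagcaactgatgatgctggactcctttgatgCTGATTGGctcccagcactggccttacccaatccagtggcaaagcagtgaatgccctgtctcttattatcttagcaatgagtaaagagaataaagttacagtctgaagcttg
The Y box was present in 4 of 10 class II promoters, in 4.09% of the 32817 promoters and in 5.84% of the tested genes with a promoter. It was present in 4.49% of the genes called lower and in 6.2% of those called higher.

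**Figure D4:**
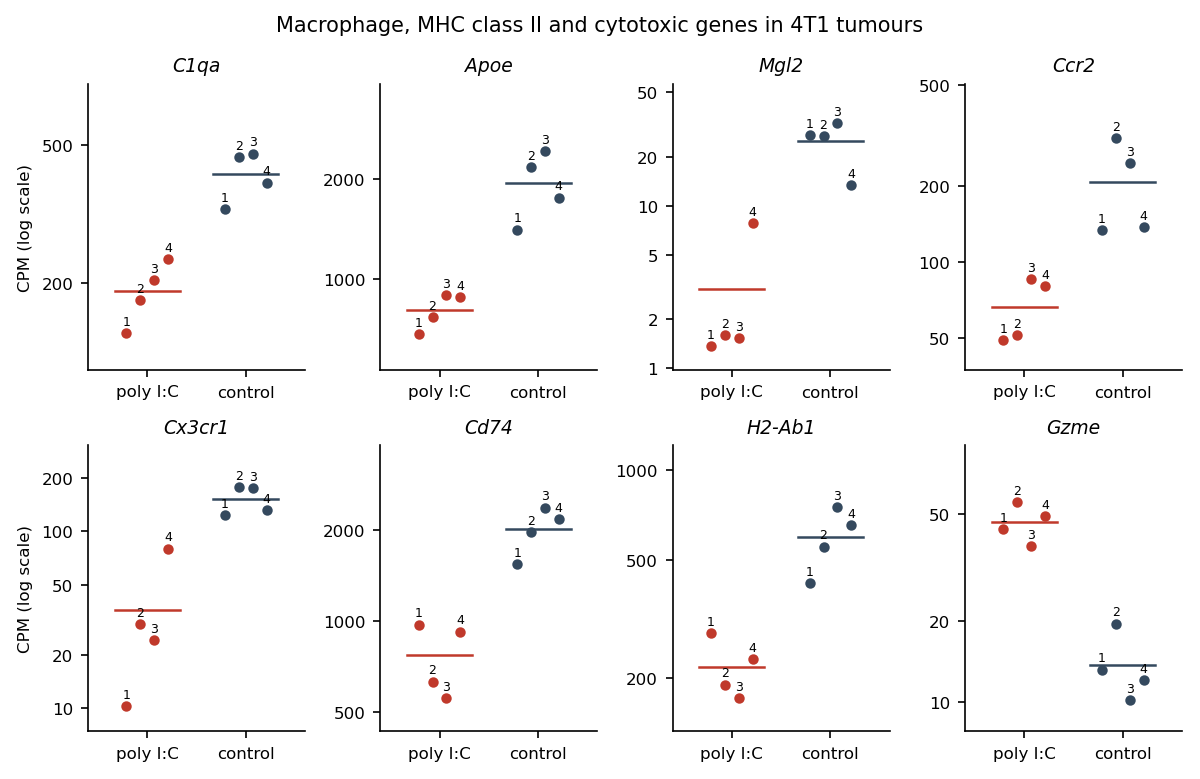
CPM of 8 called genes (log axis) in the 4 poly I:C libraries (left, red) and 4 controls (right, dark blue) of the 4T1 model, with replicate numbers and a bar at each group mean. The first 7 genes lie lower in every poly I:C library than in every control, replicate 4 included, and Gzme lies higher.

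Other products of myeloid cells gave calls in both directions, where 3.26% of all genes were called higher and 3.06% lower. A single call in a list says little about that list. Ccr2, which brings monocytes out of the blood, measured 49.0, 51.1, 85.5 and 80.2 CPM with poly I:C and 134, 309, 246 and 137 CPM in controls (-1.64 ± 0.32, adjusted p = 0.0131). Cx3cr1, the fractalkine receptor, was at 10.2, 29.9, 24.1 and 79.8 CPM against 124 to 178 CPM (-2.08 ± 0.47, adjusted p = 0.0214). In the list of 21 CC chemokines and receptors these 2 genes fell, and Ccl3 rose (2.15 ± 0.54, adjusted p = 0.0332), with 23.8, 7.38, 19.2 and 2.11 CPM against 2.48 to 3.85 CPM. Of 14 monocyte markers Vcan rose, a proteoglycan also made by fibroblasts, at 32.4 to 71.4 against 16.5 to 24.3 CPM (1.35 ± 0.24, adjusted p = 0.0096), and Ccr2 was the only lower member. Complement gave 4 lower members of 23, the 3 C1q chains and C6, and 1 higher, C2 (1.28 ± 0.34). C6, of the membrane attack complex, was at 1.37, 1.48, 4.20 and 4.35 CPM against 14.5 to 35.6 CPM (-3.11 ± 0.50, adjusted p = 0.00734), with no overlap. Cybb, the catalytic subunit of the phagocyte oxidase, fell (-0.67 ± 0.16, adjusted p = 0.0273), alone of 9 oxidase genes, as did the dendritic and macrophage integrin Itgax (-0.67 ± 0.14, adjusted p = 0.0186), alone of 18 dendritic cell markers. Among 21 lysosomal genes the cathepsins Ctsz (-0.36 ± 0.07), Ctsa (-0.49 ± 0.11) and Ctss (-0.85 ± 0.19) fell, and Ctsk, the collagen-degrading cathepsin, rose to 85.4, 207, 215 and 111 CPM, against 31.1 to 51.6 CPM in controls (1.90 ± 0.48, adjusted p = 0.0354). Of the 8 fits that left out 1 library, Ccr2, Vcan, C6 and Ctsz were called in 8, Itgax in 7, Ctsa in 6, Cx3cr1 and Ctss in 5, Cybb in 3, C2 and Ctsk in 2 and Ccl3 in 1. The CC list had no higher member except without poly I:C replicate 4 (3), and the complement and lysosomal lists had none except without poly I:C replicates 1 and 4. The oxidase list had no lower member without control replicates 2 or 3 or poly I:C replicates 1, 2 or 3.

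Checkpoint genes gave 2 lower members of 18, where 3.06% of all genes were called lower. Vsir, which encodes the inhibitory ligand VISTA of myeloid cells, measured 70.1, 61, 66.2 and 75.3 CPM with poly I:C and 101, 132, 132 and 115 CPM in controls (-0.82 ± 0.11, adjusted p = 0.00432). Pdcd1lg2 (PD-L2) was at 1.06 to 1.88 against 2.48 to 8.79 CPM (-1.95 ± 0.41, adjusted p = 0.0162). For both genes every poly I:C library was below every control. The Vsir call held in all 8 fits that left out 1 library and the Pdcd1lg2 call in 6.

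In the profile of list medians by library, the 8 libraries separated in more than 1 way. The macrophage list was 1.14, 0.84, 0.37 and 0.69 log2 units below the control mean in poly I:C replicates 1 to 4, and the MHC class II list 0.89, 1.09, 1.17 and 1.06 units below it. The neutrophil marker list was at 2.15, 1.28, 1.23 and -0.76 units, and the interferon-stimulated list at 0.75, 0.88, 0.99 and -0.37. Replicate 4 was thus below the control mean with replicates 1 to 3 for the first pair of lists, and below every control for the second pair. Controls ranged from -0.36 to 0.26 for the class II list and from -0.32 to 0.36 for the neutrophil list.

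**Figure D5:**
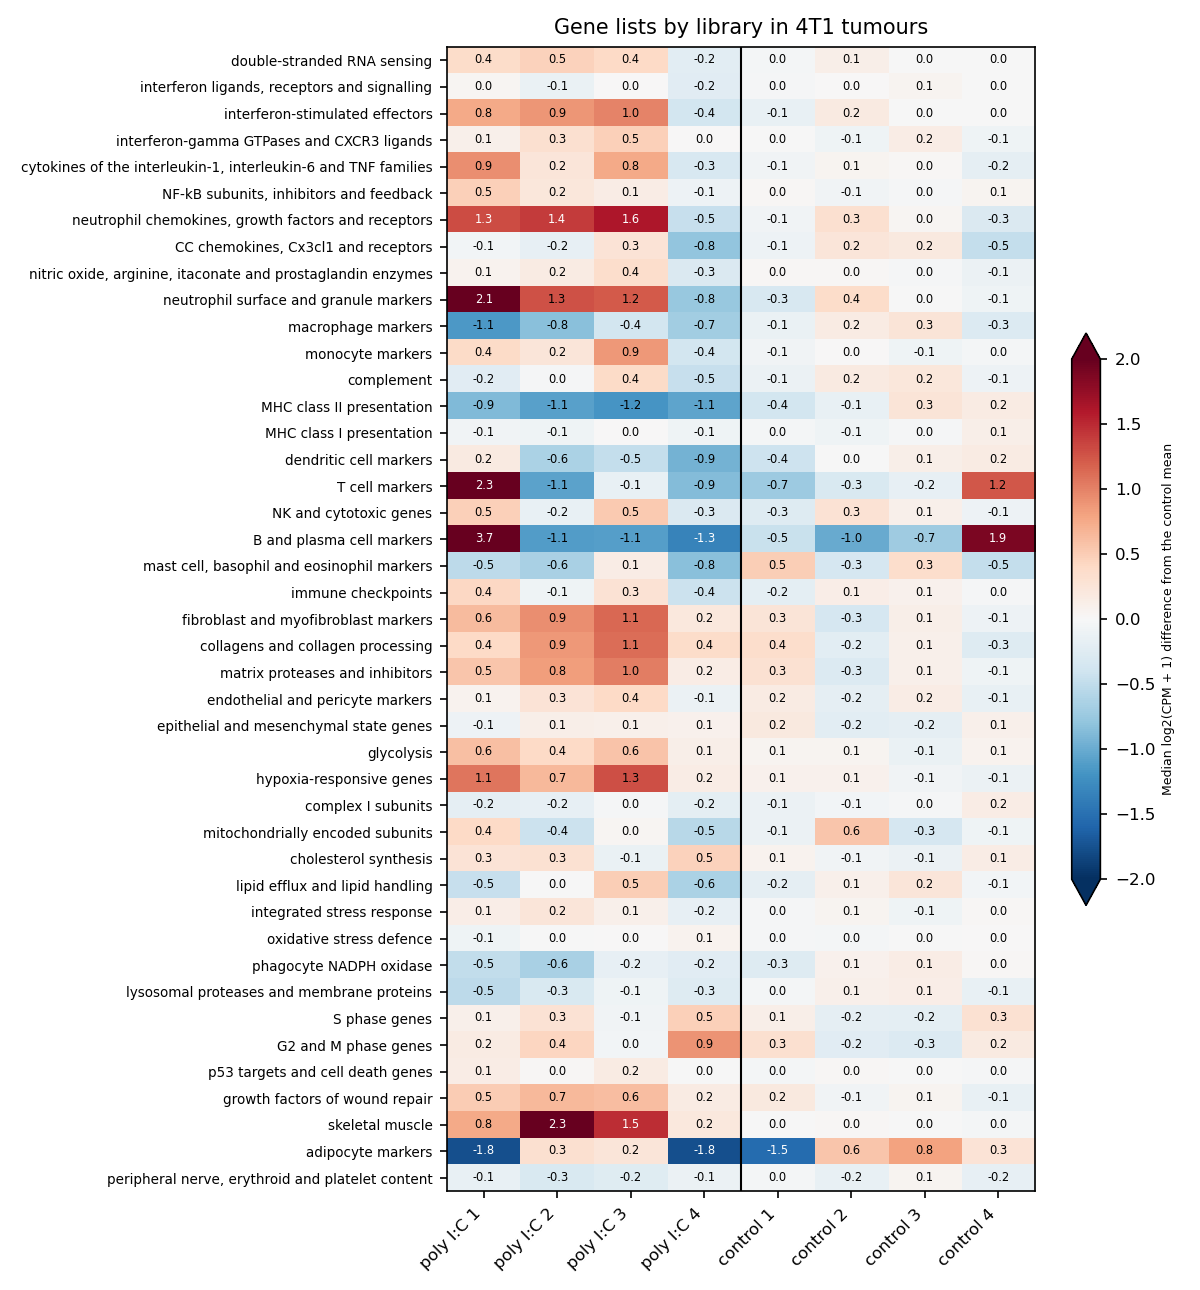
Rows are gene lists, columns are the 4 poly I:C libraries (left of the line) and the 4 controls of the 4T1 model, and each cell gives the median over tested members of log2(CPM + 1) minus the control mean. The neutrophil list reads 2.1, 1.3, 1.2 and -0.8 and the class II list -0.9, -1.1, -1.2 and -1.1 in poly I:C replicates 1 to 4.

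Lymphocyte genes did not separate the arms. None of 19 T cell markers and none of 14 B and plasma cell markers passed the test, and their summed levels were spread within each arm. T cell markers summed to 822, 84.5, 154 and 102 CPM with poly I:C and 117 to 419 CPM in controls. B and plasma cell markers summed to 2315, 561, 498 and 406 CPM against 483 to 860 CPM, the highest poly I:C value being the Igkc-rich replicate 1. Of 18 NK and cytotoxic genes, Gzme rose and Klrb1c (NK1.1) fell, the Klrb1c call holding in 4 of the 8 fits without 1 library. Over all genes 3.26% were called higher and 3.06% lower, so 1 call each way says little about the list. Gzme, a granzyme of the cluster on chromosome 14 (ENSMUSG00000022156, 56117626 to 56120625), measured 43.9, 55.4, 38.0 and 49.1 CPM with poly I:C and 13.2, 19.6, 10.1 and 12.0 CPM in controls (1.76 ± 0.27, adjusted p = 0.00538). All 4 poly I:C libraries were above all controls, and the call held in all 8 fits that left out 1 library. Its neighbours Gzmd (1.08 ± 0.51, adjusted p = 0.21), Gzmf (0.83 ± 0.70, adjusted p = 0.504) and Gzmc (1.0 ± 0.46, adjusted p = 0.201) were not called, and reads can be shared among these near-identical genes. Perforin, Prf1, was at 6.55 to 14.5 against 5.29 to 8.6 CPM (0.64 ± 0.39, adjusted p = 0.339).

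Genes of mast cells, basophils and eosinophils gave 1 higher and 2 lower members of 12, against 3.26% and 3.06% of all genes. Mcpt8, a basophil protease whose gene lies next to the granzymes, measured 15.4, 23.6, 16.9 and 9.06 CPM with poly I:C and 5.91, 2.72, 2.43 and 3.66 CPM in controls (2.14 ± 0.32, adjusted p = 0.00538). The groups did not overlap, and all 8 fits without 1 library called it. The mucosal mast cell protease Mcpt2, at 0.255 to 1.65 against 2.18 to 17.2 CPM (-3.43 ± 0.91, adjusted p = 0.0398), and the eosinophil lectin Siglecf, with 4, 3, 3 and 4 reads against 13, 21, 30 and 6 reads (-2.10 ± 0.47, adjusted p = 0.0209), fell at low counts, and were called in 2 and 5 of the 8 fits without 1 library.

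The stromal lists held many higher members. Of 24 fibroblast and myofibroblast markers 11 rose and none fell, with a median of 0.86 on the log2 scale. Fbln2, an extracellular matrix glycoprotein, measured 607, 921, 1147 and 651 CPM with poly I:C and 437, 250, 320 and 290 CPM in controls (1.36 ± 0.20, adjusted p = 0.00538). The contractile genes Acta2, at 123, 189, 211 and 147 against 109, 54.3, 83.8 and 75.1 CPM (1.05 ± 0.20, adjusted p = 0.0123), and Tagln, at 165, 185, 229 and 105 against 47.6 to 85.4 CPM (1.46 ± 0.24, adjusted p = 0.00838), also separated the groups. Cnn1, a calponin of smooth muscle, was at 6.89 to 9.93 against 1.76 to 4.20 CPM (1.71 ± 0.27, adjusted p = 0.00729). Postn (1.12 ± 0.23) and Tnc (1.66 ± 0.35), matrix proteins of wound stroma, rose too. Summed over the 24 markers, levels were 5728, 7327, 8521 and 6386 CPM against 3720 to 5671 CPM, so replicates 2 and 3, which held the most muscle RNA, were also the highest here. The share of surrounding tissue in this was not tested. Over the fits without 1 library, 4 to 13 members were called, the fewest without poly I:C replicate 2, and 5, 6 and 6 without control replicates 2, 3 and 4.

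Of 28 collagens and collagen-processing genes 11 rose. Col5a3 measured 154, 197, 203 and 70.1 CPM with poly I:C and 72.3, 29.5, 53.5 and 44.7 CPM in controls (1.64 ± 0.30, adjusted p = 0.0101), and the other type V chains Col5a1 (1.19 ± 0.22) and Col5a2 (1.25 ± 0.24) followed. Col1a1, of the main fibrillar collagen, was at 1704 to 4265 against 866 to 1616 CPM (1.29 ± 0.27, adjusted p = 0.0159). Lox, which cross-links collagen (1.73 ± 0.41), and Plod2, which hydroxylates its lysines for that purpose, rose with them, Plod2 at 183, 162, 219 and 128 CPM against 70.8 to 103 CPM (0.94 ± 0.19, adjusted p = 0.0148). The list had 4 called members without poly I:C replicate 2, and 6, 5 and 6 without control replicates 2, 3 and 4.

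Matrix proteases and their inhibitors rose for 8 of 26. Adam12, a metalloprotease of activated stroma (ENSMUSG00000054555, chromosome 7, 133883199 to 134232146), measured 98.8, 105, 114 and 57.9 CPM with poly I:C and 39.5, 19.8, 30.7 and 27.4 CPM in controls (1.68 ± 0.22, adjusted p = 0.00432). Adam19 was at 54.3 to 90.6 against 32.2 to 43.5 CPM (0.96 ± 0.14, adjusted p = 0.00538). Both Adam genes were higher in every poly I:C library than in every control. Mmp3 (1.67 ± 0.35), Mmp10 (2.42 ± 0.60) and Timp1 (1.16 ± 0.30) were other called members. When poly I:C replicate 2 or control replicates 2 or 4 were dropped the count was 3, and without control replicate 3 it was 4.

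Growth factors of wound repair rose for 6 of 22 and fell for 1. Ereg, an EGF receptor ligand, had 138, 42, 107 and 18 reads with poly I:C and 22, 12, 18 and 11 reads in controls (2.43 ± 0.49, adjusted p = 0.0151). Wnt5a, a non-canonical Wnt, measured 49.0, 46.9, 60.5 and 29.5 CPM against 11.9 to 28.1 CPM (1.39 ± 0.28, adjusted p = 0.0151), and Ccn2, known as CTGF, 368, 456, 553 and 208 against 118 to 187 CPM (1.45 ± 0.33, adjusted p = 0.0234). Fgf7 (2.10 ± 0.52), Ccn1 (1.32 ± 0.35) and Inhba (0.80 ± 0.20) were the other higher members. Tgfb3 fell, at 74.8, 116, 82.5 and 118 CPM with poly I:C against 150 to 187 CPM (-0.77 ± 0.17, adjusted p = 0.0183). Wnt5a and Tgfb3 did not overlap between the arms. When poly I:C replicates 2 or 3 or control replicates 2, 3 or 4 were dropped, 2 members were called higher.

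Hypoxia-responsive genes rose for 11 of 22 and fell for 1, with a median of 0.88 on the log2 scale. The oxygen sensor Egln1, which marks HIF for destruction, measured 262, 217, 246 and 191 CPM with poly I:C and 166, 144, 144 and 159 CPM in controls (0.58 ± 0.10, adjusted p = 0.0096). Its relative Egln3 moved the other way, at 142, 129, 154 and 163 against 224 to 269 CPM (-0.76 ± 0.18, adjusted p = 0.0251). Both genes were without overlap. Kdm3a, a histone demethylase (0.56 ± 0.11), Car12, a carbonic anhydrase (0.96 ± 0.21), and Hif1a itself, at 402 to 508 against 282 to 347 CPM (0.48 ± 0.11, adjusted p = 0.0216), rose. Adm, encoding the vasodilator adrenomedullin (1.46 ± 0.39), Hilpda, of lipid droplets (1.76 ± 0.44), and the glucose transporter Slc2a1 (0.98 ± 0.27) were each called in 1 of the 8 fits without 1 library. The fit that dropped poly I:C replicate 4 had 16 higher members, the others 3 to 7, with the fewest without control replicate 4. Egln3 was not called without control replicates 3 or 4 or poly I:C replicate 2.

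Glycolysis genes rose for 9 of 23 and fell for none. Pgam1 measured 47.3, 40.6, 46.3 and 33.4 CPM with poly I:C and 27.1, 26.9, 24.6 and 29.9 CPM in controls (0.63 ± 0.12, adjusted p = 0.0124). Pfkp, of the committing step, was at 191, 149, 189 and 140 against 106 to 124 CPM (0.58 ± 0.12, adjusted p = 0.0141), and Tpi1 at 426 to 561 against 307 to 372 CPM (0.51 ± 0.10, adjusted p = 0.0153). In all 3 genes the groups did not overlap and replicate 4 was the lowest poly I:C library. Ldha, which makes lactate, was at 944, 818, 993 and 680 against 547 to 672 CPM (0.48 ± 0.12, adjusted p = 0.0288). Higher members numbered 14 when poly I:C replicate 4 was dropped and 2 to 4 when any other library was. Complex I gave 1 lower member of 36, Ndufb11 (-0.44 ± 0.12, adjusted p = 0.0382, called in 2 of the 8 fits without 1 library), and none of 9 mitochondrially encoded subunits passed the test. For complex I that share is near the 3.06% of all genes called lower.

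Cholesterol synthesis genes rose for 4 of 24, all by less than 0.6 on the log2 scale: Sc5d (0.49 ± 0.10, adjusted p = 0.0141), Hsd17b7 (0.57 ± 0.16), Cyp51 (0.46 ± 0.13) and Msmo1 (0.50 ± 0.14). Sc5d, a late desaturase of the pathway, measured 73.9, 61.1, 53.3 and 62 CPM with poly I:C and 41.3 to 47.2 CPM in controls. It was called in all 8 fits without 1 library, where Hsd17b7 was called in 3 and Cyp51 and Msmo1 in 1 each. In lipid handling, Plin2, which coats lipid droplets, rose at 257, 283, 386 and 225 against 155 to 218 CPM (0.63 ± 0.16, adjusted p = 0.0358, called in 3 of these 8 fits), and Apoe was the only lower member of 18. Pnpla2, the lipase that empties droplets, fell at 35.9, 44.1, 38.4 and 53.9 against 61.9 to 85.0 CPM (-0.80 ± 0.14, adjusted p = 0.0096). It was the only called gene of 12 adipocyte markers, whose sum ranged from 124 to 520 CPM with poly I:C and from 173 to 628 CPM in controls. The shares over all genes were 3.26% higher and 3.06% lower, so single calls say little about these lists.

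Few cell cycle genes passed the test, where 3.26% of all genes were called higher and 3.06% lower. The integrated stress response and p53 lists had shares above these in both directions, each from few members. The integrated stress response gave 2 higher members of 23, Vldlr (1.86 ± 0.43) and the mitochondrial folate enzyme Aldh1l2 (1.46 ± 0.38), and 1 lower, Nupr1 (-0.45 ± 0.13), whose call was lost in each of the 8 fits without 1 library. This list had 0 higher members when poly I:C replicate 3 or control replicates 2, 3 or 4 were dropped, and 1 when poly I:C replicates 1 or 2 were. In oxidative stress defence, Gclm, of glutathione synthesis, rose at 47.8, 56.6, 58.0 and 51.4 CPM against 36.8 to 41.4 CPM (0.47 ± 0.08, adjusted p = 0.00824), alone among 19. None of 22 S phase genes and 1 of 22 G2 and M phase genes (Bub1, 0.62 ± 0.17, adjusted p = 0.0458) passed. Poly I:C replicate 4 had the highest Bub1 level, 73.6 CPM, against 49.2 to 62.1 CPM in replicates 1 to 3 and 35.4 to 46.0 CPM in controls. The G2 and M phase list had 5 called members without control replicate 1 or poly I:C replicate 3, and 0 without any other library, and 1 S phase gene was called without poly I:C replicate 1. Of 22 p53 targets and cell death genes, Cdkn1a (p21) rose at 74.6, 56.0, 73.1 and 31.1 against 23.4 to 30.9 CPM (1.08 ± 0.22, adjusted p = 0.0157), and so did Mlkl, the effector of necroptosis, at 77.0, 95.6, 93.2 and 87.0 against 59.0 to 64.2 CPM (0.52 ± 0.09, adjusted p = 0.0101). Replicate 4 lay within the range of the other poly I:C libraries for Mlkl and near the controls for Cdkn1a. Mdm2 rose (0.38 ± 0.10, adjusted p = 0.0398), and Gadd45a fell, at 81.1, 95.4, 75.9 and 229 against 204 to 374 CPM (-1.18 ± 0.32, adjusted p = 0.046). Of the 8 fits without 1 library, Mlkl was called in 8, Cdkn1a in 7, Gadd45a in 2 and Mdm2 in 1. Gadd45a was called without control replicate 1 or poly I:C replicate 4.

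Few epithelial and endothelial genes passed the test. Of 25 epithelial and mesenchymal state genes Prrx1 was called, a mesenchymal transcription factor, at 84.3, 110, 146 and 75.9 CPM with poly I:C and 31 to 50.7 CPM in controls (1.38 ± 0.19, adjusted p = 0.00486). The epithelial genes Epcam, at 231 to 374 against 419 to 615 CPM (-0.65 ± 0.31, adjusted p = 0.215), and Krt8, at 357 to 732 against 498 to 719 CPM (-0.26 ± 0.20, adjusted p = 0.461), were well expressed in every library and were not called. Epcam was nevertheless lower in every poly I:C library than in every control. In this list 3 members lay wholly lower and 3 wholly higher, against 6.74% and 5.53% of all genes. Of 22 endothelial and pericyte markers Rgs5, a pericyte gene, fell (-0.94 ± 0.25, adjusted p = 0.0402). A share of 1 in 22 is near the 3.06% of all genes called lower, and no member was lower in the fits without 1 library except that without poly I:C replicate 1.

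Outside the lists, the genes with the smallest p were called in each of the 8 fits that left out 1 library. First by p among the higher genes was Pi15, a secreted protease inhibitor (ENSMUSG00000067780, chromosome 1, 17601901 to 17630939), at 12.4, 18.3, 24.4 and 9.38 CPM with poly I:C and 3.63, 3.47, 4.19 and 3.25 CPM in controls (2.15 ± 0.25, adjusted p = 0.00398). Tfpi2, an inhibitor of coagulation and matrix proteases, measured 35.3, 40.3, 48.8 and 17.9 against 8.07 to 12.9 CPM (1.79 ± 0.24). Itga2, the collagen-binding integrin, measured 74.9, 88.4, 75.2 and 54.5 against 21.1 to 26.7 CPM (1.66 ± 0.23), and Cdh11, a mesenchymal cadherin, 53.7 to 82.7 against 32.1 to 43.8 CPM (0.99 ± 0.14), with an adjusted p = 0.00445 for each of the 3. Ugdh, which makes the UDP-glucuronate used for hyaluronan, rose evenly at 254, 274, 290 and 300 against 188, 180, 153 and 164 CPM (0.71 ± 0.10, adjusted p = 0.00432). Filip1l (0.91 ± 0.13), Ttc39c (0.75 ± 0.10) and the tyrosine kinase Fer (0.72 ± 0.10) completed the first 10. Each of these genes was higher in every poly I:C library than in every control, which was a condition for being picked.

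Dio2, the deiodinase that activates thyroid hormone (ENSMUSG00000007682, chromosome 12, 90724552 to 90738438), headed the lower genes, with 5.13, 6.32, 7.19 and 13 CPM with poly I:C and 35.5, 65.7, 66.1 and 38.8 CPM in controls (-2.71 ± 0.32, adjusted p = 0.00398). Fetub, a fetuin, fell to 8, 10, 16 and 26 reads with poly I:C, against 101 to 193 reads in controls (-3.02 ± 0.44, adjusted p = 0.00538). Afap1l2, an adaptor of Src signalling, was at 5.42, 6.20, 7.25 and 12.3 against 21.1 to 29.6 CPM (-1.65 ± 0.21, adjusted p = 0.00432). In these 3 genes replicate 4 was the poly I:C library nearest to the controls. Trabd2b (-1.61 ± 0.24), a protease that cleaves Wnt proteins, Large2 (-0.99 ± 0.13), a glycosyltransferase, Plekhg5 (-0.95 ± 0.12), Nsmf (-0.85 ± 0.10) and Mamdc4 (-0.54 ± 0.08) fell with little spread, Mamdc4 at 23.1 to 24.1 against 30.6 to 37.7 CPM. Slc6a2, the noradrenaline transporter, was at 0.171, 0.590, 0.827 and 5.84 CPM with poly I:C and 8.62 to 35.4 CPM in controls (-3.46 ± 0.72, adjusted p = 0.0162). Among the largest increases were also the noncoding RNA Meg3, at 23.7, 33, 112 and 11.4 against 6.15 to 9.80 CPM (2.40 ± 0.61, adjusted p = 0.0364), and the sodium-proton exchanger Slc9b2, at 3.76 to 12.0 against 1.03 to 1.95 CPM (2.39 ± 0.57, adjusted p = 0.0272), each called in 2 of the 8 fits without 1 library.

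Whether the response differed from that of the MT model was tested as the difference of both log2 fold changes in a joint fit of all 31 libraries. A response is called larger or smaller in 4T1 by the sign of that difference, whichever way the gene moved in either model. The MT poly I:C libraries had Sox10 at 0.826 to 2.25 CPM and Krt5 at 1311 to 2452 CPM, against 173, 218, 174 and 1.3 CPM for Sox10 and 29.7, 21.4, 23.6 and 2199 CPM for Krt5 in MT control replicates 1 to 4. Only control replicate 4 was thus like the MT poly I:C libraries in these genes. The MT response therefore cannot be told apart from this difference between libraries except against control replicate 4. Of 18956 genes, 2108 (11.1%) were called different, 1080 with a larger (5.7%) and 1028 with a smaller (5.42%) value in 4T1. Without the MT libraries with Sox10 above 10 CPM, which leaves MT control replicate 4 alone and assumes that it varies like the other groups, 450 were called (2.27%), 130 larger (0.656%) and 320 smaller (1.61%). The libraries left out for Sox10 were MT control replicates 1, 2 and 3 and MT phenformin replicates 1, 2 and 3. Of the 1102 genes called in 4T1, 1053 were measured in MT and 647 had the same sign there.

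The genes of macrophages gave the largest block of differences. Of 27 macrophage markers 21 had a smaller response in 4T1 and none a larger one, and 11 did so without the Sox10-high libraries. C1qa was at 323 ± 21.7 CPM in MT poly I:C tumours and 120 ± 13.6 CPM in MT controls (SD, n = 4 each), while it fell in 4T1. The difference of the log2 responses, 4T1 minus MT, was -2.56 ± 0.29 (adjusted p = 1.9e-05) and -2.79 without the Sox10-high libraries (adjusted p = 0.0064). The same held for Ctss at -2.54 ± 0.30 (adjusted p = 2.3e-05), with 979 ± 103 and 309 ± 37.2 CPM in MT poly I:C and MT control tumours, and for Csf1r at -2.72 ± 0.30 (adjusted p = 1.5e-05), with 190 ± 36.9 and 55.9 ± 6.26 CPM. Gm2a, a lysosomal activator protein for ganglioside breakdown, and Htr7, a serotonin receptor, were the other genes among the 5 with the smallest p. Without the Sox10-high libraries the differences of these 4 genes were -2.53, -2.88, -1.52 and -3.45, each still called. MHC class II gave 9 smaller responses of 14 (4 without the Sox10-high libraries), CC chemokines and receptors 8 of 21 (3), lysosomal genes 12 of 21 (7) and checkpoints 7 of 18 (4). H2-Aa, for example, was at 1954 ± 230 CPM in MT poly I:C and 813 ± 293 CPM in MT control tumours, a difference of -2.65 ± 0.43 (adjusted p = 0.00032).

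Called differences among inflammatory and interferon genes varied by list, where 11.1% of all genes were called different. Of 26 interferon-stimulated effectors 1 differed, of 20 NF-kB genes 1, and of 24 cytokines and receptors 3. Neutrophil surface and granule markers gave 3 larger and 3 smaller responses of 27. Smaller responses alone were called for 3 of 16 interferon ligands, receptors and signalling genes and 2 of 15 neutrophil chemokines, growth factors and receptors. The same held for 2 of 18 interferon-gamma-induced genes and 1 of 22 sensing genes. The difference for Nos2 was 1.2 ± 0.73 (adjusted p = 0.3), for Il6 0.74 ± 0.94 (adjusted p = 0.67), for Ptgs2 0.58 ± 0.99 (adjusted p = 0.76) and for Samd9l -0.29 ± 0.28 (adjusted p = 0.55), intervals too wide to say that the models responded alike. Slfn4 differed by 5.95 ± 1.19 (adjusted p = 0.0024), with 19.8 ± 6.91 CPM in MT poly I:C and 107 ± 70.6 CPM in MT control tumours, but by 2.04 without the Sox10-high libraries (adjusted p = 0.37). Tfpi2 behaved the same way, at 4.77 ± 0.94 (adjusted p = 0.0021) and 0.49 (adjusted p = 0.79). Larger responses in 4T1 for 11 of 36 complex I genes, 9 of 24 cholesterol genes, 5 of 22 hypoxia genes and 5 of 23 glycolysis genes were not called for any member without the Sox10-high libraries, where 1 glycolysis gene had a smaller response in 4T1. For complex I the larger response was a difference above 0 and not a rise in 4T1. There 0 of the 36 members were called higher and 1 lower, with a median log2 fold change of -0.16. Adam12 rose in 4T1 and differed by 0.05 ± 0.40 from MT (adjusted p = 0.96), where it was at 15.8 ± 3.54 with poly I:C and 5.16 ± 1.85 CPM in controls.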

How the data were processed

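Bulk poly(A) RNA was sequenced from strand-specific libraries, per the labels' protocols. Per the submitters' processing notes, Trimmomatic 0.32.48, STAR 2.3.0 and featureCounts 1.4.4 were used with mm10 (GRCm38). Their order, the annotation release, the strand setting and any filter are not given in the sources used here. The deposited values are raw counts per gene, whole numbers made by the authors, for 39017 genes, of which 8371 were 0 in every library. Symbols and coordinates come from a GRCm38 annotation that held 37693 of the identifiers, and promoters from RefSeq.

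Counts were tested with edgeR 4.0.16 (R 4.3.3): filterByExpr with minimum count 10 and minimum total 15, TMM factors, and the quasi-likelihood F-test in 1 fit of the 15 4T1 libraries, with Benjamini-Hochberg adjustment over all genes tested and a threshold of 0.05. The joint fit held all 31 libraries. Values are log2 fold changes ± SE, the SE being the size over the square root of F, and CPM on TMM-scaled library sizes. The SE includes the spread between libraries estimated in the fit. The settings were tested on simulated data.

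The groups, gene lists (43 lists, 865 names, of which 858 genes were in the table, 826 were tested and 5 names had no match) and tests were chosen with earlier results of these data known. The genes named are the 10 called genes with the smallest p and the 5 with the largest change in each direction, restricted to an average log2 CPM of 1 or more and to groups that do not overlap. Added to these are, from each list, its first 4 called members by p, defining members of the pathways, and the 5 genes with the smallest p between models. Others were named after their values were seen: Il1a, Il1b, Tnf, Acod1, Asl, Cxcl1, Cxcl5, Clec4e, Ddx60, Trim30a, Mx1, Ifih1, Cd300ld3, Cbr2, Mrc1, H2-Ea-ps, C2, Gzmc, Gzmd, Gzmf, Prf1, Postn, Tnc, Col1a1, Lox, Mmp10, Timp1, Fgf7, Ccn1, Inhba, Egln3, Hif1a, Adm, Hilpda, Slc2a1, Epcam, Krt8, Sox10 and Krt5. Some called members of the lists are counted but not reported here by name. Alternatives were DESeq2 1.42.0, its size factors in edgeR, other filters on low counts, the replicate number as a block, limma 3.58.1 voom with quality weights, fits without Acta1-high (above 10 CPM) or Igkc-high (above 100 CPM) 4T1 libraries, without each library and of only the 8 libraries. Added after the data were seen were fits without pairs of poly I:C libraries, without each MT library and without MT libraries with Sox10 above 10 CPM. No 2 libraries agreed within sampling noise (lowest chi-square per degree of freedom 14.7).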

Additional observations from a re-analysis of the deposited data

Results flagged for a closer look

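Of 268 groups of 4 libraries looked at (both arms for each named gene), 9 held a library far from the other 3, where chance gives about 1 in 20. With poly I:C these were Igkc in replicate 1 at 657 CPM (others 0.621 to 3.31) and Cd28, a T cell co-receptor, in replicate 1 at 31.8 CPM (others 1.3 to 3.5). Also far from the others were Slc6a2 at 5.84 CPM (others 0.171 to 0.827), Mgl2 at 7.82 CPM (others 1.37 to 1.59) and Gadd45a at 229 CPM (others 75.9 to 95.4), all in poly I:C replicate 4 and all nearer to the controls than replicates 1 to 3. Among controls, Nos2 was 35.0 CPM in replicate 1 (others 16.1 to 17.3). In control replicate 2, Il1r2 was 10.5 CPM (others 5.29 to 5.78), Slfn4 19.9 CPM (others 11.3 to 12.6) and Tlr3 87.1 CPM (others 78.0 to 78.1).

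The poly I:C response differed between the models, by the test of the difference itself, for C1qa (-2.56, 4T1 minus MT on the log2 scale), Ctss (-2.54), Csf1r (-2.72), Gm2a (-1.61) and Htr7 (-3.62). Each was lower with poly I:C in 4T1 tumours and higher with poly I:C in MT tumours. Sox10 was above 10 CPM in 0 of 4 MT poly I:C libraries and in 3 of 4 MT controls.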

How the results depend on the processing

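In 4T1 the 1102 calls were 1973 with DESeq2 (1088 shared), 2863 with voom and quality weights, 259 without Igkc-high libraries (220 shared), 401 with only the 8 libraries compared (370 shared), 1440 without poly I:C replicates 1 and 4, 1 without replicates 2 and 3, and 289 to 1986 when 1 library was left out. Without the 5 Acta1-high libraries edgeR called 0, with 2726 genes at an unadjusted p under 0.05. All 1099 measured genes of the 1102 kept their sign there, which is no independent check, as the libraries kept had helped to choose them. Filters on low counts gave 822 and 1196 calls and DESeq2 size factors 1102. The 2108 differences between models were 8119 with voom, 927 without Acta1-high libraries, 450 without Sox10-high MT libraries, 1308 to 2067 without 1 4T1 library and 1199 to 4438 without 1 MT library, the extremes being MT control replicates 2 and 4. The causes were not tested.

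The replicate number as a block gave 831 and 1953 calls. Same-numbered libraries deviated with correlations of -0.11, 0.20, 0.21 and -0.29. Poly I:C replicate 1 was most like control replicate 4 (0.56), both being Igkc-rich. No pairing by number was seen, but differences in cell content can hide one, so these correlations cannot exclude it.

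Signs turned for 6 genes that were not called. Leaving out 1 library gave -0.94 to 2.03 for Cd28, -4.74 to 2.95 for Igkc (both lowest without poly I:C replicate 1), -0.26 to 0.31 for Arg1, -0.017 to 0.14 for Tlr3 and -0.41 to 0.022 for mt-Nd4. Cd28 was -0.28 with voom, -0.20 without Igkc-high libraries and -0.72 without poly I:C replicates 1 and 4. Igkc was -0.21 with the block, -2.26 with voom, -3.76 without Igkc-high libraries and -4.36 without replicates 1 and 4. Without Acta1-high libraries, and likewise without poly I:C replicates 2 and 3, Arg1 was -0.46, Tlr3 -0.032 and -0.023, and Csf3r -0.087 and -0.072. Depth limits genes below about 1 CPM, such as Ifnb1.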
